A study of Mus musculus with 40 samples.

Results

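Rpl3, a gene of chromosome 15, parted the 36 BXD lines of a mouse hypothalamus RNA-seq series into 20 lines with a low count and 16 lines with a high count. The lines were chosen on that count alone: low Rpl3 lines had under 13 CPM (the usual depth-scaled read count, a gene's reads over the library total) and high Rpl3 lines had 13 CPM or more. The whole series held 40 libraries, 1 per strain, from untreated mice. The other 4 libraries came from the parental inbred strains DBA/2J and C57BL/6J and from their reciprocal hybrids B6D2F1 and D2B6F1. Each BXD library was made from the pooled RNA of 3 to 6 hypothalami, so the spread behind every p-value below is the spread between lines, with no repeat of any line.

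BXD lines are recombinant inbred mice descended from a cross of C57BL/6J and DBA/2J, and at each locus a line is fixed for the allele of either parent. Genes that lie close together on a chromosome are mostly inherited together, so a marker on chromosome 15 also parts the lines by the alleles of its neighbours. RPL3 is a core protein of the large ribosomal subunit that reaches towards the peptidyl transferase centre, and ribosomal protein genes have many processed copies elsewhere in the mouse genome.

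Rpl3 had 2.68 CPM in the lowest, 3.17 CPM in the median and 3.70 CPM in the highest of the 20 low Rpl3 lines, from 53 to 139 reads a line. It had 45.8, 58.4 and 64.2 CPM in the lowest, median and highest of the 16 high Rpl3 lines, from 778 to 1533 reads a line. The line just under the threshold was BXD65 at 3.70 CPM, and the line just over it was BXD32 at 45.8 CPM. An empty interval of 3.63 log2 units thus lay between the sides, and the medians differed 18.4-fold. These values chose the sides and are given without a test. DBA/2J had 12.2 CPM, which was 3.85 times the median of the low Rpl3 lines and above all 20 of them. C57BL/6J had 46.3 CPM, inside the range of the high Rpl3 lines only through BXD32. It was below every other high Rpl3 line, of which BXD83 was the lowest at 54.1 CPM. The hybrids B6D2F1 and D2B6F1 had 30.2 and 32.2 CPM, between the parents.

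**Figure D1:**
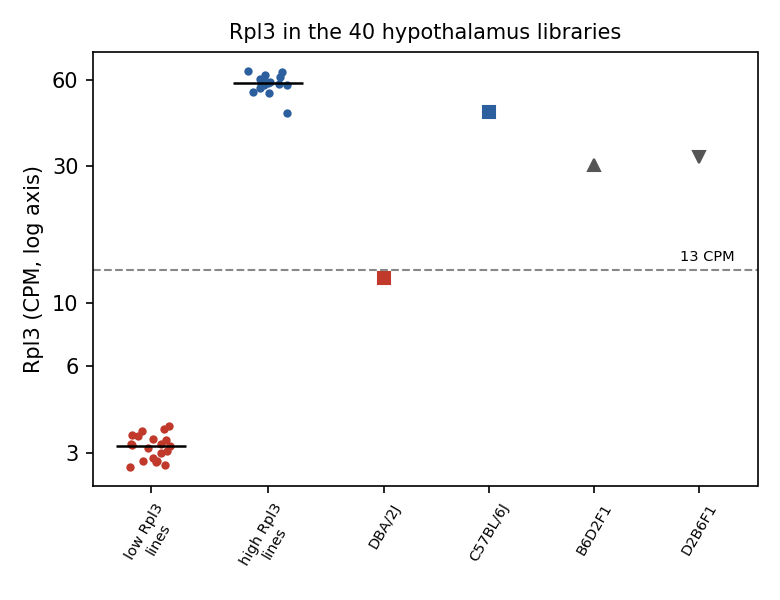
Rpl3 in CPM on a log axis, with 1 point per library. Red points are the 20 low Rpl3 lines, blue points the 16 high Rpl3 lines, bars their medians, and the dashed line the threshold of 13 CPM. DBA/2J at 12.2 CPM lies above all low Rpl3 lines, and both hybrids lie between the parents.

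Near-identical copies limit what an Rpl3 count can show. The transcript Rpl3-201 has 1351 bases in GENCODE vM21 (assembly GRCm38.p6), and 994 of its 1252 possible 100-base windows, the length of the reads, also occur in the transcripts of 7 other genes. The remaining 258 windows lie in 4 stretches, and 100 of them are the windows that cover position 866. The sequences around position 866 are shown because that base sets Rpl3 apart from all 3 processed copies aligned here. They run 5′ to 3′ over positions 842 to 890 of Rpl3-201, and the capital marks position 866, counted from 1 at the 5′ end of Rpl3-201.
Rpl3-201 (chromosome 15): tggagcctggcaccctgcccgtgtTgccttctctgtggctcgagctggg
Rpl3-ps1 (chromosome X): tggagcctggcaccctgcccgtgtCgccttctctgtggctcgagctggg
Rpl3-ps2 (chromosome X): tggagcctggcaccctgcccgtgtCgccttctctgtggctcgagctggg
Gm5879 (chromosome 6): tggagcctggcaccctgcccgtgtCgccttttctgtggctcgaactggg

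The substitution T866C, with the base of Rpl3-201 first, was present in all 3 copies. Rpl3-ps1 differed from Rpl3-201 at 1 further position of the 1210 aligned bases, C137A, and was 99.8% identical. The surroundings of that position, 113 to 161 of Rpl3-201, are shown with position 137 in capitals.
Rpl3-201 (chromosome 15): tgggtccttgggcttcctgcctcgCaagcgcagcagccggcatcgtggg
Rpl3-ps1 (chromosome X): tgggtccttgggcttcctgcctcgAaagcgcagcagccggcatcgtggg

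Rpl3-ps2 had 10 substitutions and Gm5879 had 12. These are reference sequences: no DBA/2J sequence was used, and which windows the counted reads came from was not tested. How reads with several equal placements were handled is not given in the sources used here, so the amount of Rpl3 RNA on either side is uncertain. Per kilobase of transcript, the median level of Rpl3 was 2.34 CPM in the low Rpl3 lines and 43.2 CPM in the high Rpl3 lines. Over 46 other genes of the large subunit the median level per kilobase was 8.72 CPM in the low Rpl3 lines and 9.21 CPM in the high Rpl3 lines. Rpl3 thus exceeded 10 of the 46 in the low Rpl3 lines and 36 of the 46 in the high Rpl3 lines, and Rpl26, another gene of that subunit, was listed at 0 in all 36 lines. Rpl3l, the paralog known from striated muscle, stayed at or under 0.670 CPM in the low Rpl3 lines and 0.747 CPM in the high Rpl3 lines.

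The 40 libraries held 12.2 M to 40.4 M counts, and the median total was 23.6 M in the low Rpl3 lines and 22.6 M in the high Rpl3 lines. The mean log2 total differed by 0.16 between the sides (two-sided permutation test, p = 0.0808). No libraries were near-duplicates, and pairwise correlations of log2 CPM ran from 0.976 to 0.997. BXD43, a low Rpl3 line, and BXD32, a high Rpl3 line, correlated least with the other lines, with median correlations of 0.984 and 0.982. The feeding neuropeptides of the arcuate nucleus marked the tissue: all 10 passed the filter, with summed levels of 252 to 499 CPM in the low Rpl3 lines and 250.2 to 416 CPM in the high Rpl3 lines.

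Outside Rpl3, the sides differed almost entirely in genes of the same chromosome. Of 15561 other genes tested, 22 (0.141%) passed an adjusted p of 0.05 (edgeR quasi-likelihood test, Benjamini-Hochberg adjustment over all genes, as in every adjusted p below). In the low Rpl3 lines 5 of them were higher (0.0321% of all genes) and 17 were lower (0.109%). Chromosome 15 held 21 of the 22, which is 3.43% of its 612 tested genes, with 5 higher (0.817%) and 16 lower (2.61%). The other chromosomes held 1, the carbonic anhydrase gene Car2 of chromosome 3, which is 0.00669% of 14949 genes. At an unadjusted p under 0.05 stood 85 genes of chromosome 15 (13.9%) and 762 genes elsewhere (5.10%).

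The called genes clustered around Rpl3 in gene order. Among the 20 tested genes within 10 places of Rpl3, 6 were called. At 11 to 25 places 2 of 30 were called, and at 26 to 50 places 10 of 50. The share called thus did not fall steadily with distance. Of all 100 within 50 places, 18 were called, against 3 of the 512 genes farther away. The called genes reached from Mroh5, 139 tested genes before Rpl3, to Pnpla3, 63 tested genes after it, with 15 before and 6 after. Distances are counted in tested genes because the counts were made on the older assembly mm9, while the gene order comes from GRCm38.p6.

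**Figure D2:**
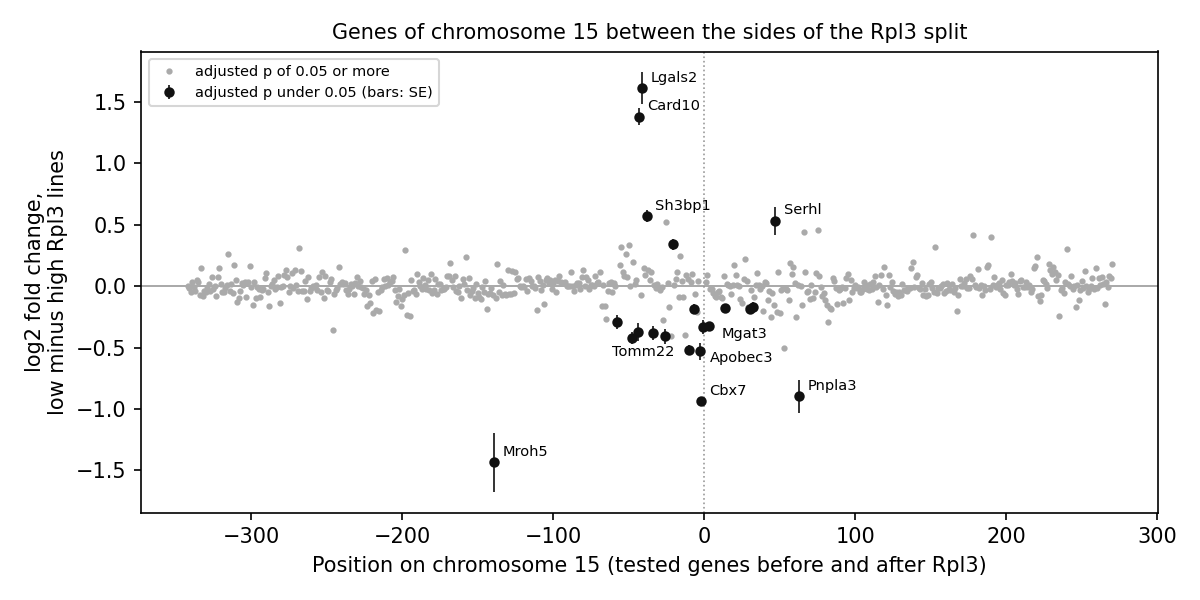
Log2 fold change, low minus high Rpl3 lines, of the 612 tested genes of chromosome 15 (y axis) against their place in gene order from Rpl3 at 0 (x axis). Black points have an adjusted p under 0.05, with bars of 1 SE, and grey points do not. Of the 21 black points 18 lie within 50 genes of Rpl3, and Mroh5 lies farthest away.

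In 4 genes, 0.0257% of all tested, the values of the 20 low and the 16 high Rpl3 lines did not overlap, and all 4 lie on chromosome 15, where they make up 0.654% of the genes tested. Cbx7 encodes a chromodomain subunit of Polycomb repressive complex 1 and lies 2 genes before Rpl3. It had 40.2, 46.0 and 53.7 CPM in the lowest, median and highest low Rpl3 line, against 81.3, 88.8 and 96.2 CPM in the high Rpl3 lines. Every low Rpl3 line was thus below every high one, with a log2 fold change of -0.94 ± 0.030 (SE, n = 20 and 16, edgeR adjusted p = 3.22e-25). Card10 encodes a scaffold protein of NF-kappaB signalling and lies 43 genes before Rpl3. It ran the other way, with 27.6, 34.7 and 45.7 CPM in the low Rpl3 lines against 10.1, 13.5 and 16.6 CPM in the high Rpl3 lines. Its log2 fold change was 1.38 ± 0.069 (SE, edgeR adjusted p = 2.91e-18).

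Mgat3, 3 genes after Rpl3, encodes the glycosyltransferase that adds the bisecting N-acetylglucosamine to N-glycans. It had 155, 171 and 182 CPM in the low Rpl3 lines, against 203, 211 and 227 CPM in the high Rpl3 lines. The difference was small next to that of Cbx7, yet no line crossed over (log2 fold change -0.32 ± 0.020 SE, edgeR adjusted p = 3.37e-15). Lgals2 encodes galectin-2, a lectin that binds beta-galactosides, and was counted at 2 to 32 reads a line. It had 0.589, 0.818 and 1.10 CPM in the low Rpl3 lines, against 0.108, 0.240 and 0.441 CPM in the high Rpl3 lines. It was the largest difference of the 22 called genes, at a log2 fold change of 1.61 ± 0.13 (SE, edgeR adjusted p = 1.22e-11).

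**Figure D3:**
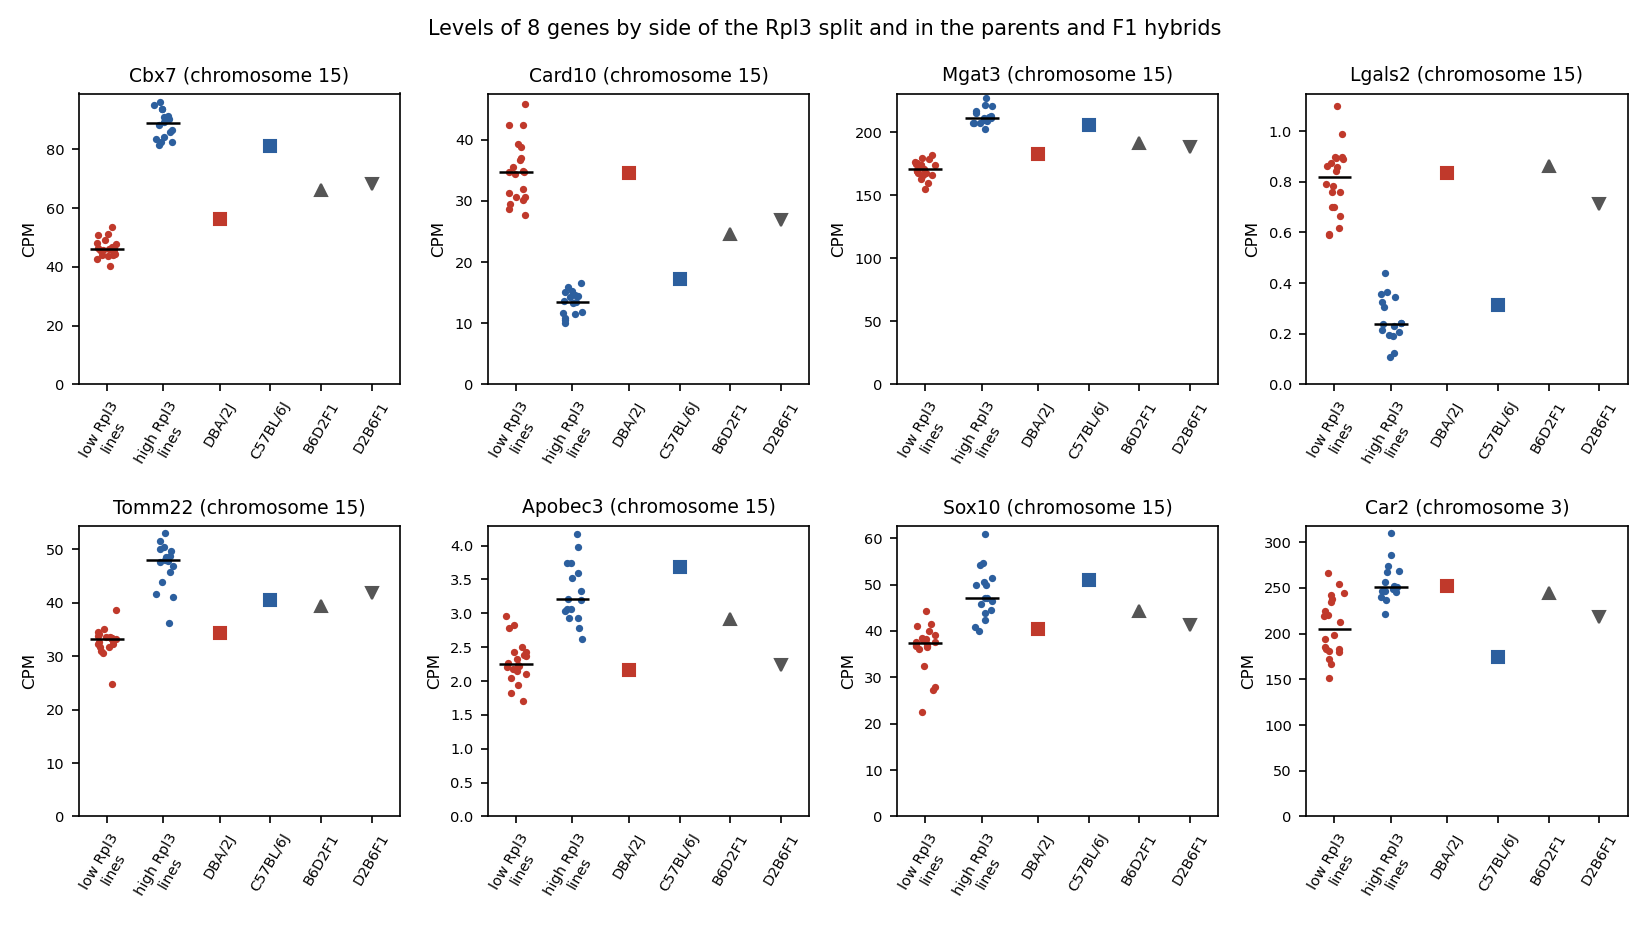
CPM of 8 called genes in all 40 libraries, with 1 point per library, bars at the medians of the low and high Rpl3 lines, squares for DBA/2J and C57BL/6J and triangles for the hybrids. Cbx7, Card10, Mgat3 and Lgals2 leave a gap between the sides, while the sides of Tomm22, Apobec3, Sox10 and Car2 overlap. In Car2 the parents stand in the opposite order to the sides.

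In the other 17 called genes of chromosome 15 the sides overlapped in at least 1 line. Tomm22, which encodes an import receptor of the outer mitochondrial membrane, had 24.8, 33.3 and 38.6 CPM in the low Rpl3 lines and 36.2, 48.0 and 53.1 CPM in the high Rpl3 lines. The ranges met in BXD51 at 38.6 CPM and BXD32 at 36.2 CPM, and the log2 fold change was -0.52 ± 0.041 (SE, edgeR adjusted p = 5.02e-12). Apobec3, a cytidine deaminase gene that restricts retroviruses and is known to vary between mouse strains, lies next to Cbx7. It had 1.71, 2.25 and 2.96 CPM in the low Rpl3 lines and 2.62, 3.20 and 4.17 CPM in the high Rpl3 lines, with 3 low and 4 high lines inside the range of the other side (log2 fold change -0.53 ± 0.068 SE, edgeR adjusted p = 2.78e-06). Apobec3 and Cbx7 overlap on opposite strands. The libraries were stranded but the sources used here do not give the strand setting of the counting, so reads of such a pair may have been split between them.

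The other genes that were higher in low Rpl3 lines were Sh3bp1, Pla2g6 and Serhl. Sh3bp1, which encodes a GTPase-activating protein, had a log2 fold change of 0.57 ± 0.049 (SE). Of its 100-base windows, 1466 of 2276 are shared with the overlapping coding gene Gm49510, so its count is uncertain. Pla2g6, the gene of a calcium-independent phospholipase, had a log2 fold change of 0.34 ± 0.044 (SE), with 8 of the 16 high Rpl3 lines inside the range of the low ones. Lgals2, Xrcc6, Serhl and Mroh5 each overlap a coding gene on the other strand. Cdc42ep1, Desi1 and Rrp7a, the partners of Lgals2, Xrcc6 and Serhl, had log2 fold changes of -0.07, -0.03 and -0.21. None of these partners was called (edgeR adjusted p = 0.919, 0.944 and 0.568). Rrp7a did pass with 2 principal components as covariates, without BXD32, and without BXD32 and BXD43. Gm6569, the partner of Mroh5, was not examined.

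Genes lower in the low Rpl3 lines included a pair tied to the primary cilium. The receptor gene Sstr3, whose somatostatin receptor sits in neuronal cilia, had 7.69, 8.96 and 10.4 CPM in the low Rpl3 lines and 9.07, 12.1 and 14.6 CPM in the high Rpl3 lines (log2 fold change -0.42 ± 0.050 SE). Ift27, a small GTPase of intraflagellar transport, had a log2 fold change of -0.29 ± 0.054 (SE, edgeR adjusted p = 0.00356). Of the low Rpl3 lines 17 lay inside the range of the high ones for Ift27, against 8 for Sstr3. The cilium was no list of its own, and the pair was put together after its values were seen.

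Smaller differences were found for Slc25a17, a carrier of the peroxisomal membrane (log2 fold change -0.18 ± 0.022 SE), and Xrcc6, which encodes the Ku70 subunit of the DNA end-binding complex (-0.19 ± 0.028 SE). Triobp, an actin-bundling protein gene, had a log2 fold change of -0.38 ± 0.059 (SE). Pdgfb, which encodes a growth factor that recruits pericytes, is the last tested gene before Rpl3 and had a log2 fold change of -0.33 ± 0.056 (SE). Mroh5 had a log2 fold change of -1.43 ± 0.24 (SE) at 0.0892 to 0.886 CPM in the low Rpl3 lines and 0.245 to 1.65 CPM in the high Rpl3 lines. The 4 remaining called genes were named after their values were seen. They were Sun2 of the nuclear envelope, Mfng, whose glycosyltransferase modifies Notch, Serhl, a serine hydrolase-like gene, and Nhp2l1, whose protein binds U4 and box C/D RNAs. Their adjusted p (edgeR) ran from 0.00864 to 0.0417.

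Not every near neighbour was called. Of the 10 tested genes nearest to Rpl3, Pdgfb, Cbx7, Apobec3 and Mgat3 were called and 6 were not. Syngr1, a synaptic vesicle gene that adjoins and overlaps Rpl3 on the other strand, had 475, 599 and 671 CPM in the low Rpl3 lines and 450.4, 586 and 641 CPM in the high Rpl3 lines (log2 fold change 0.03 ± 0.039 SE). The log2 fold changes of Cbx6, Tab1, Mief1 and Atf4 ran from -0.02 to 0.09, with adjusted p (edgeR) from 0.903 to 0.968. Dnal4, a dynein light chain gene 5 genes before Rpl3, had a log2 fold change of -0.21 ± 0.053 (SE, edgeR adjusted p = 0.197). Without BXD32, Dnal4 passed (edgeR adjusted p = 0.00712). That fit was 1 of only 3 among the 45 alternatives in which Dnal4 passed, and it did not pass in the other 42.

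The region holds transcription factor genes with known target programs, namely Atf4 of the integrated stress response, Srebf2 of cholesterol synthesis and Tef of the PAR bZIP clock output. Srebf2 and Tef had log2 fold changes of 0.01 and -0.00 between the sides (edgeR adjusted p = 0.992 and 0.999). None of 20 Atf4 targets, 21 Srebf2 targets or 16 clock genes tested was called, with median log2 fold changes of 0.02, -0.02 and 0.03 beside -0.00 over all genes. In each list 1 gene stood at an unadjusted p under 0.05, as did 5.44% of all genes tested. With 0.141% of all genes called, lists of this size would mostly hold no call in any case. The actin-regulated coactivator gene Mkl1 had a log2 fold change of -0.09 ± 0.054 (SE, edgeR adjusted p = 0.907).

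Ribosomal genes other than Rpl3 showed no called difference. None of the 43 tested genes of the large subunit, the 32 of the small subunit and the 28 ribosome assembly factors passed. Over all 15561 genes tested, 0.141% were called and 5.44% had an unadjusted p under 0.05. At that share of calls, lists of this size would hold few calls or none. The median log2 fold changes of the 3 lists were 0.04, 0.05 and 0.02. In the large subunit 34 of 43 values were positive, and 3 genes stood at an unadjusted p under 0.05, of which Rpl9 had the lowest (log2 fold change 0.17 ± 0.068 SE, edgeR adjusted p = 0.825). Rpl14, another of the 3, ran the other way, with median levels of 15.3 CPM per kilobase in the low Rpl3 lines and 58.6 CPM per kilobase in the high Rpl3 lines. Its values varied widely within the sides (log2 fold change -0.78 ± 0.33 SE, edgeR adjusted p = 0.865). The small subunit and the assembly factors had 2 such genes each. Fau of the small subunit had the lowest p there, with a log2 fold change of -0.82 ± 0.32 (SE, edgeR adjusted p = 0.812). Of 14 tested p53 target genes, a program that disturbed ribosome assembly is known to raise, 7 values were positive and 7 negative and none was called.

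Sox10 encodes the transcription factor that drives oligodendrocyte differentiation and lies 26 genes before Rpl3. It had 22.6, 37.4 and 44.2 CPM in the low Rpl3 lines, against 40.0, 47.1 and 60.8 CPM in the high Rpl3 lines. Of each side 4 lines lay inside the range of the other, and the log2 fold change was -0.41 ± 0.063 (SE, edgeR adjusted p = 0.000137). Sox10 was the 1 called gene among the 15 oligodendrocyte genes examined. Of the other 14, 13 were lower in the low Rpl3 lines by their point estimates, none was called, and their median log2 fold change was -0.10. Mobp, a myelin protein gene, had the lowest unadjusted p of them, with a log2 fold change of -0.18 ± 0.067 (SE, edgeR adjusted p = 0.799). The values of the transcription factor genes Olig1 and Olig2 were 0.08 and -0.00 on the same scale. The summed level of all 15 was 4273 to 6772 CPM in the low Rpl3 lines and 4985 to 8504 CPM in the high Rpl3 lines, and none was listed at 0. In pooled tissue RNA, fewer cells of a type and less RNA per cell cannot be told apart. Without BXD32 and BXD43 the log2 fold change of Sox10 was -0.38, and 9 of the other 14 genes were lower with a median of -0.05. With 2 principal components as covariates it was -0.48, and 13 of the 14 were lower with a median of -0.096.

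Car2, the called gene outside chromosome 15, encodes cytosolic carbonic anhydrase 2, which oligodendrocytes and choroid plexus are known to express. It had 152, 205 and 266 CPM in the low Rpl3 lines and 221, 251 and 310.2 CPM in the high Rpl3 lines. Of the low lines 7 reached the range of the high ones, and 11 high lines lay inside the range of the low ones (log2 fold change -0.31 ± 0.060 SE, edgeR adjusted p = 0.00649). DBA/2J had 252 CPM and C57BL/6J 174 CPM, which is the opposite order, and the hybrids had 245 and 218 CPM. No choroid plexus gene of 11 tested was called, 4 values were positive and 7 negative, and the median log2 fold change of -0.16 was the lowest of the lists with 5 or more tested genes. Ttr, the transthyretin gene, had the lowest p of them, with a log2 fold change of -2.59 ± 1.01 (SE, edgeR adjusted p = 0.812). Its mean was 8.88 CPM with a standard deviation of 20.2 in the low Rpl3 lines, and 51.9 CPM with 202 in the high ones. The spread within each side thus exceeded the mean, and the fold change does not describe most lines. The lowest, median and highest summed levels of the list were 304, 367 and 504 CPM in the low Rpl3 lines and 323, 364 and 1938 CPM in the high Rpl3 lines. The part of either tissue component in the Car2 difference was not tested. Without BXD32 and BXD43 the log2 fold change of Car2 was -0.30 (edgeR adjusted p = 0.00796). With 2 principal components as covariates it was -0.27 (edgeR adjusted p = 0.0216). A relation between Car2 and Sox10 within the sides, examined after the values were seen, was not detectable. Pearson's r was -0.30 in the 20 low Rpl3 lines (permutation p = 0.199, adjusted over both sides 0.398) and 0.064 in the 16 high Rpl3 lines (p = 0.814, adjusted 0.814). Spearman's rank correlation was -0.29 (permutation p = 0.216) and 0.24 (p = 0.358), and r without the 2 lines farthest from the Sox10 median was -0.41 and 0.12. Btla, an inhibitory lymphocyte receptor gene on chromosome 16, came next among unlinked genes with a log2 fold change of -0.70 ± 0.16 (SE, edgeR adjusted p = 0.0678).

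The parental strains, which entered neither the choice of lines nor the fit, stood in the same order as the sides for nearly all called genes of chromosome 15. The sign of DBA/2J minus C57BL/6J matched that of low minus high Rpl3 lines in 20 of the 21 called genes of chromosome 15 (95.2%) on TMM-scaled log2 CPM, against 44.6% of all 15561 genes. On plain CPM it matched in 19 of the 21 (90.5%), against 44.4% of all genes. Sun2 was an exception on both scales, at 51.6 CPM in DBA/2J and 50.9 CPM in C57BL/6J. Mfng, at 5.45 CPM in both parents, changed sign with the scaling, and its log2 difference of -0.01 was within its counting SE of 0.17. Cbx7 had 56.3 CPM in DBA/2J and 81.0 CPM in C57BL/6J, with 66.1 and 68.1 CPM in B6D2F1 and D2B6F1. Both parents thus lay between the sides, above the highest low line at 53.7 CPM and below the lowest high line at 81.3 CPM. Card10 had 34.6 CPM in DBA/2J and 17.2 CPM in C57BL/6J, and the hybrids lay between at 24.6 and 26.8 CPM. For Card10 C57BL/6J was above the highest high Rpl3 line, at 16.6 CPM. Lgals2 had 0.833 CPM in DBA/2J and 0.313 CPM in C57BL/6J, but its hybrids, at 0.861 and 0.713 CPM, were near DBA/2J.

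The levels of both hybrids fell within the parental interval in 13 of the 21 genes, that of 1 hybrid in 4 and that of neither in 4. The same shares over all tested genes were not counted. The 21 genes were called on the difference of the sides, not on that of the parents. The parental difference was smaller than that of the sides in 16 of the 21, with a median ratio of 0.641 on the log2 scale, and it exceeded 2 counting standard errors in 14. For Rpl3 the log2 difference was -1.93 between the parents and -4.21 between the sides. Each parent is 1 library, so these are descriptions of single libraries.

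**Figure D4:**
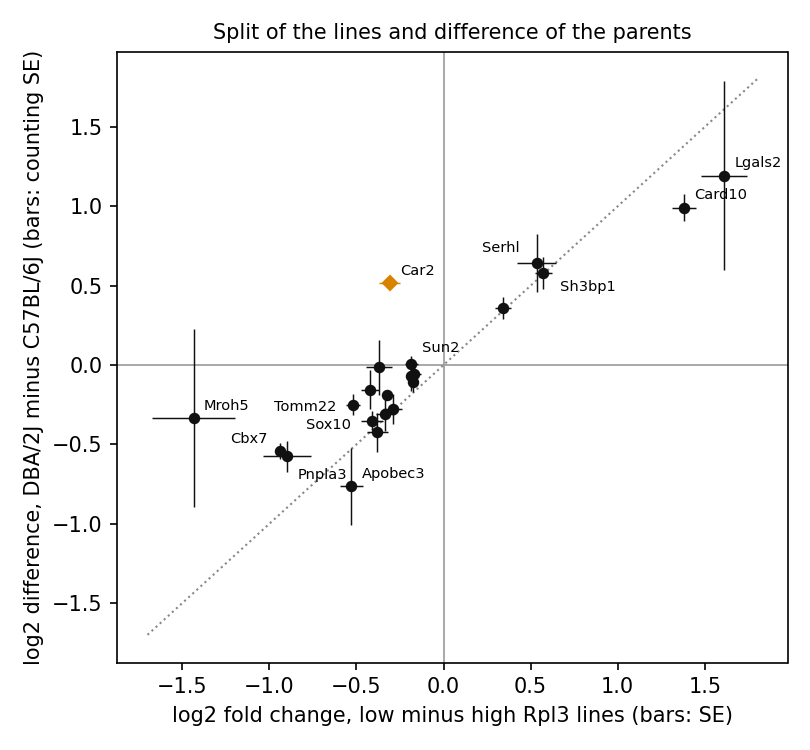
Log2 difference DBA/2J minus C57BL/6J (y axis, bars of 1 counting SE) against the log2 fold change low minus high Rpl3 lines (x axis, bars of 1 SE) for the 22 called genes. Black points are genes of chromosome 15, the orange diamond is Car2, and the dotted line marks equal differences. On this TMM-scaled axis 20 of the black points share the sign of the sides, Mfng among them at -0.01, and Car2 does not.

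Farther along the chromosome some lines changed sides. Pnpla3, whose product adiponutrin acts on lipid droplets, split the lines cleanly but at another place. Its 20 low Rpl3 lines ran from 9.50 to 15.1 CPM, while 10 high Rpl3 lines ran from 24.2 to 28.5 CPM. The other 6 high Rpl3 lines lay inside the range of the low ones: BXD32 had 13.5 CPM, BXD56 11.6, BXD61 10.3, BXD79 10.7, BXD81 11.8 and BXD95 10.4 CPM of Pnpla3. DBA/2J had 14.4 CPM and C57BL/6J 21.2 CPM. The log2 fold change between the sides, with those 6 lines included, was -0.90 ± 0.14 (SE, edgeR adjusted p = 0.000137).

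Serhl, 47 genes after Rpl3, varied over the same lines in the other direction. It had 6.09 to 8.95 CPM in the low Rpl3 lines and 2.87 to 4.86 CPM in the 10 high Rpl3 lines with high Pnpla3. In the other 6 high Rpl3 lines it had 5.58 to 8.13 CPM, with BXD56 the lowest of them, below every low Rpl3 line and above the other 10. Over all lines Serhl had a log2 fold change of 0.53 ± 0.11 (SE, edgeR adjusted p = 0.0255). No low Rpl3 line had the high Pnpla3 level. Only Card10, Cbx7, Pnpla3 and Rpl3 itself, of 565 genes of chromosome 15 searched, had an empty interval of at least 0.5 log2 units with 6 or more lines on each side, and Card10 and Cbx7 placed all 36 lines as Rpl3 did.

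**Figure D5:**
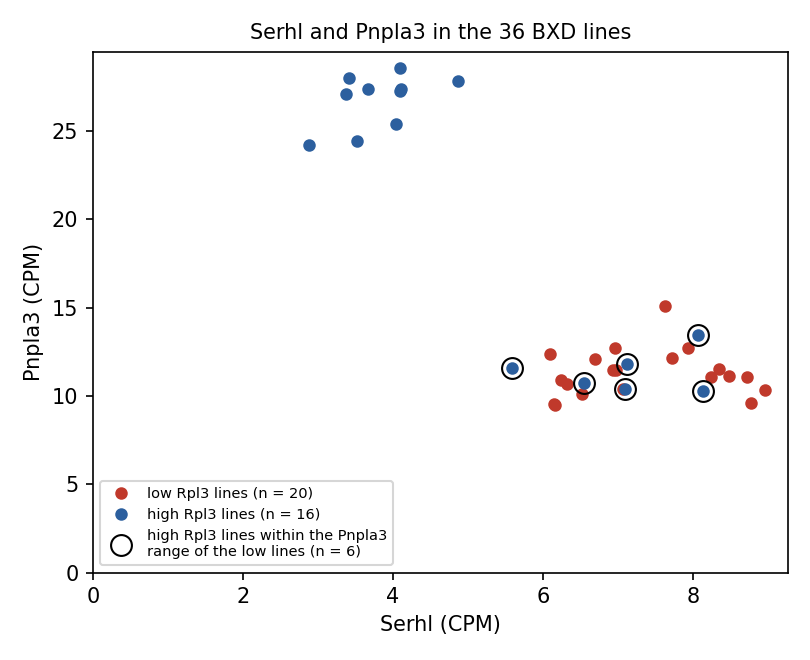
Pnpla3 (y axis) against Serhl (x axis), both in CPM, with 1 point per BXD line. Red points are the 20 low Rpl3 lines, blue points the 16 high Rpl3 lines, and circles mark the 6 high Rpl3 lines within the Pnpla3 range of the low ones. The 10 blue points at the upper left have at least 24.2 CPM of Pnpla3.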

How the data were processed

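Hypothalamus RNA of 40 strains, 1 library each, was sequenced as stranded 100-base single-end mRNA libraries. The authors deposited a table of raw read counts for 23955 gene symbols. They also deposited a normalized signal for 15251 genes, and 100% of its values, within 0.01, came out as whole reads once divided by 1 constant per library. Reads recovered in this way served as an alternative. TopHat2 2.0.8, HTSeq 0.5.4p3, DESeq and mm9 are named, per the submitters' processing notes, without parameters or strand setting.

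CPM here are counts over the column sum, in the usual scale of counts per M. The model for the 36 BXD columns used edgeR 4.0.16 (R 4.3.3) (TMM, filterByExpr by side, robust glmQLFit, glmQLFTest), with Rpl3 left out of testing and Benjamini-Hochberg adjustment over the other 15561 genes. Standard errors are the log2 fold change divided by the square root of F. Parents and hybrids were not fitted. Parental log2 differences carry a prior count of 2, and their standard errors cover counting error only. On simulated counts of 15562 genes, the fit recovered 71.6%, 88.1% and 100% of genes changed by 0.25, 0.5 and 1 log2 units, with 6 false calls. The simulation changed 67, 67 and 66 genes by these amounts, against 22 genes called in the data. It also drew every gene independently, so recovery in the data may be lower.

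Chromosome and gene order came from GENCODE vM21 or, by symbol or synonym, RefSeq, and 23827 of the 23955 symbols were placed. No gene coordinates are given because the builds differ. Alternatives included DESeq2 1.42.0. The genes named were the 15 of chromosome 15 and up to 10 elsewhere with the lowest p among those called, the 5 tested neighbours of Rpl3 on each side, 6 genes of chromosome 15 of prior interest (1 is not reported here), and the called or lowest-p members of 25 gene lists (413 of 422 entries found). The sides, genes and lists were chosen with earlier results of these data known.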

Additional observations from a re-analysis of the deposited data

How the results depend on the processing

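Of the 22 genes called, 20 were called under all alternatives that tested them, among 45: 9 other settings and 36 fits with 1 line left out. No called gene changed sign. Nhp2l1 was lost in 30 and Serhl in 9 of the 45, so both calls are marginal. Car2 was called in all 45, with an adjusted p from 0.000386 to 0.0216. The count of called genes on chromosome 15, 21, was 32 with 2 principal components as covariates and 19 to 26 with 1 line left out. Elsewhere the count, 1, was 5 with no filter on low counts, 3 with a mean of at least 1 CPM, 4 with DESeq2, 2 with the slope on log2 Rpl3, 11 with 2 principal components and 2 without BXD32 and BXD43. It was 1 to 4 with 1 line left out, with 4 without BXD43, and 2 without BXD29, BXD32, BXD51, BXD56, BXD70, BXD90 or BXD97. Reads recovered from the normalized table gave 19 calls on chromosome 15 and 1 elsewhere. The cause of these shifts was not tested. The fits without lines and the plain CPM of the parents were chosen after seeing the data. With 2 principal components 2 lists had a called member, Hlf of the clock genes joining Sox10, against 1. An empty interval of at least 1 log2 unit was found for Rpl3 alone, and one of at least 0.5 for 3 more. No paired analysis was possible because nothing in the labels pairs a low with a high Rpl3 library. Shallow counts limit Lgals2 and Mroh5, which had 2 reads in their lowest lines.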

Other observations

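None of the remaining lists of cell types, tissues and states had a called member in edgeR or DESeq2. In edgeR 0.141% of all genes were called, so short lists would mostly hold no call. All 16 immediate early genes had higher point estimates in the low Rpl3 lines, with a median log2 fold change of 0.14 beside -0.00 over all genes, and 3 stood at an unadjusted p under 0.05. Egr4, a transcription factor gene induced by neuronal activity, had the lowest p of them, with a log2 fold change of 0.60 ± 0.20 (SE, edgeR adjusted p = 0.713). Their summed level was 270 to 441 CPM in the low Rpl3 lines and 223 to 437 CPM in the high Rpl3 lines, so the sides overlapped. Of 13 striatal and septal genes, which mark tissue at the edge of a hypothalamic dissection, all 13 had positive values, with a median of 0.17. The lowest, median and highest summed levels were 493, 582 and 1748 CPM in the low Rpl3 lines and 473, 578 and 822 CPM in the high Rpl3 lines, so the medians were close and the sides overlapped.

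Interferon response genes ran the other way, with 17 of 19 values negative and a median log2 fold change of -0.09. Mx2, an antiviral GTPase gene, had the lowest p of them, at a log2 fold change of -0.32 ± 0.12 (SE, edgeR adjusted p = 0.799). Of the 6 tested genes among Fgf15 and its receptors, 2 values were positive and 4 negative. The co-receptor gene Klb had a log2 fold change of 0.40 ± 0.13 and the receptor gene Fgfr2 one of -0.15 ± 0.049 (SE, edgeR adjusted p = 0.689 for both). Erythrocyte genes could not be read, since 6 globin genes were listed at 0 in all 36 lines.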
